A study of Mus musculus with 10 samples.

Results

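BAF complexes are ATP-driven chromatin remodelers of the SWI/SNF family, and their subunit make-up changes as a dividing neural progenitor becomes a neuron. The 10 genes described here code for subunits that are exchanged or shared between the progenitor form and the neuronal form: Actl6a, Actl6b, Phf10, Dpf1, Dpf3, Smarca4, Smarcc1, Smarcc2, Arid1a and Arid2. They were chosen by gene symbol, with no expression value in the rule, and all 10 were found among the 23235 symbols of both deposited FPKM tables. FPKM are fragments counted relative to transcript length and to all mapped fragments, so levels of different genes can be set side by side.

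In the progenitor complex the actin-related subunit is Actl6a and the PHD-finger position is held by Phf10 or Dpf2. In the postmitotic neuronal complex Actl6b takes the place of Actl6a, Dpf1 or Dpf3 that of the progenitor PHD-finger proteins, and Ss18l1 (CREST) that of Ss18. Smarca4 is an ATPase that both forms use, Smarcc1 and Smarcc2 are scaffold subunits, Arid1a marks the canonical BAF complex and Arid2 marks the polybromo-containing relative PBAF.

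The samples were sorted GFP-positive cells of embryonic mouse cortex. Plasmids carrying an shRNA, either control or directed at the CHD-family chromatin remodeler Chd8, were electroporated in utero at embryonic day 13 and cells were collected at embryonic day 15, with the cortices of 3 to 5 embryos pooled per replicate. A new set, numbered 10, 11 and 12, held 3 libraries per group, and a first set, numbered 1 and 2, held 2 per group, each with its own shRNA and its own table. Between sets, shRNA, batch and table changed together and cannot be told apart, and levels were compared within a table only. No source used here gives the strain, the sex, the plasmid promoter or the shRNA sequences, and electroporation reaches radial glia whose sorted progeny are a mixture of progenitors and young neurons. In such a mixture, fewer cells of a type and less RNA per cell cannot be told apart.

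Every knockdown library had less Chd8 than every control library of its set: 1.84 to 2.09 against 3.30 to 4.02 FPKM (new) and 8.56 to 9.23 against 12.4 to 13.8 FPKM (first). Mean knockdown levels were 53.6% (new) and 68% (first) of control. The log2 fold change of FPKM + 1, which the added 1 makes smaller for low values, passed in the new set (−0.65, adjusted p = 0.0213). It did not pass in the first (−0.51, adjusted p = 0.152). There a correction for GC content and transcript length, added after the data had been seen, left −0.11 (adjusted p = 0.758). The new-set call was lost without control 10 or 12 or any 1 knockdown library (adjusted p of 0.053 to 0.0829). The libraries of the first-set knockdown stood apart. Olfactory receptor genes, which belong to the nasal epithelium, were raised in them, with a mean over 1118 such symbols of 1.39 and 0.993 FPKM against at most 0.0217 FPKM in the other 8 libraries. Absolute depth is unknown. The most frequent ratio of low values, gene by gene, put the depth of these 2 libraries at 0.527 and 0.529 times that of first-set control replicate 1. The raised background there was not separated from this ratio. In the new set the depths lay between 0.957 and 1.39 times that of control replicate 10.

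Sequences are shown for the Actl6 pair because its exchange is the best known step of the switch and because both genes passed the test in the joined sets below. In postmitotic neurons Actl6a is known to be repressed through its 3′ UTR by miR-9-3p (also called miR-9*) and miR-124. The mature miR-9-3p is printed from RefSeq with its seed (bases 2 to 8) in capitals, followed by the stretch of the Actl6a 3′ UTR (GENCODE M21, GRCm38, chr3:32726625-32726647, plus strand) with the match to that seed in capitals.
mmu-miR-9-3p: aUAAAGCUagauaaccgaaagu
Actl6a site: cacctcaacgtctgtAGCTTTAg
The seed match AGCTTTA, searched on the transcript strand, occurred 1 time in the 374 bases of the Actl6a 3′ UTR and 0 times in the 199 bases of that of Actl6b. Of 14394 genes with a 3′ UTR at least that long, 2.86% held it in their first 374 bases. Among the other subunits it occurred 2 times each in the longer 3′ UTRs of Smarcc1 (2268 bases) and Arid2 (2901 bases).

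The stretches before the RefSeq start site used for each gene are shown next, for the paired alternative subunits. They come from RefSeq (GRCm38.p6, plus strand, chr3:32708296-32708506 and chr5:137553296-137553516) and end before the first annotated UTR base within each window. The Actl6a window lies inside the gene as GENCODE M21 annotates it, which starts at chr3:32706298. Sequence before that start is not shown. Capitals mark CCAAT on either strand.
Actl6a: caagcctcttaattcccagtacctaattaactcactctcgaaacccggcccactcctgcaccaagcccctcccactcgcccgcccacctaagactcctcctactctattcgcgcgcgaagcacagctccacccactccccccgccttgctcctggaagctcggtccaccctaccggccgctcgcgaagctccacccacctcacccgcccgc
Actl6b: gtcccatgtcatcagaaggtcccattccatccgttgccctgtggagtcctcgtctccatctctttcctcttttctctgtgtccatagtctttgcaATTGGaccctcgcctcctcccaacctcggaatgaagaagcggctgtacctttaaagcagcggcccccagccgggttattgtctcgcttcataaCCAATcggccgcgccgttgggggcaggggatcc
In the full window of 250 bases before to 50 after the start, CCAAT occurred 3 times at Actl6b and 0 times at Actl6a, and 37.4% of 32851 promoter windows held it. Just after the Actl6b start, at chr5:137553567-137553589, lie cores of the element that the neuronal gene repressor REST is known to bind. On the plus strand they read GCTGTCC and GGTGCTG, here 9 bases apart and shown in capitals. Whether REST binds cores at this gap was not tested.
Actl6b, REST element cores: GCTGTCCggccgcctcGGTGCTG
Both cores in this order with a gap of 0 to 12 bases, on either strand, were found in 20 of the 32851 windows (0.0609%), a search set after the Actl6b sequence had been read. These matches are descriptions of letters, with no binding measured here. Of the 10 genes 9 had an entry in the promoter table, all but Arid2.

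Among the control libraries Actl6a was the most abundant of the 10 transcripts in both sets, and Dpf3 the least. In the new-set controls the order of mean FPKM was Actl6a (113), Smarca4 (89.7), Smarcc2 (67.6), Smarcc1 (58.2), Dpf1 (51.9), Actl6b (49.5), Arid2 (12.9), Arid1a (12.8), Phf10 (7.51) and Dpf3 (2.56). The libraries of neighbours overlapped from Smarca4 through Actl6b and between Arid2 and Arid1a, so those orders did not exceed the spread. In the first-set controls the order was Actl6a (158), Arid1a (47.9), Smarcc1 (46.5), Dpf1 (45.5), Smarca4 (32.7), Smarcc2 (29.5), Arid2 (25.2), Actl6b (21.2), Phf10 (9.09) and Dpf3 (2.57), with overlap among Arid1a, Smarcc1 and Dpf1 and between Smarca4 and Smarcc2. Transcripts of the neuronal forms Actl6b and Dpf1 were thus well above the floor in control cells at this stage.

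**Figure D1:**
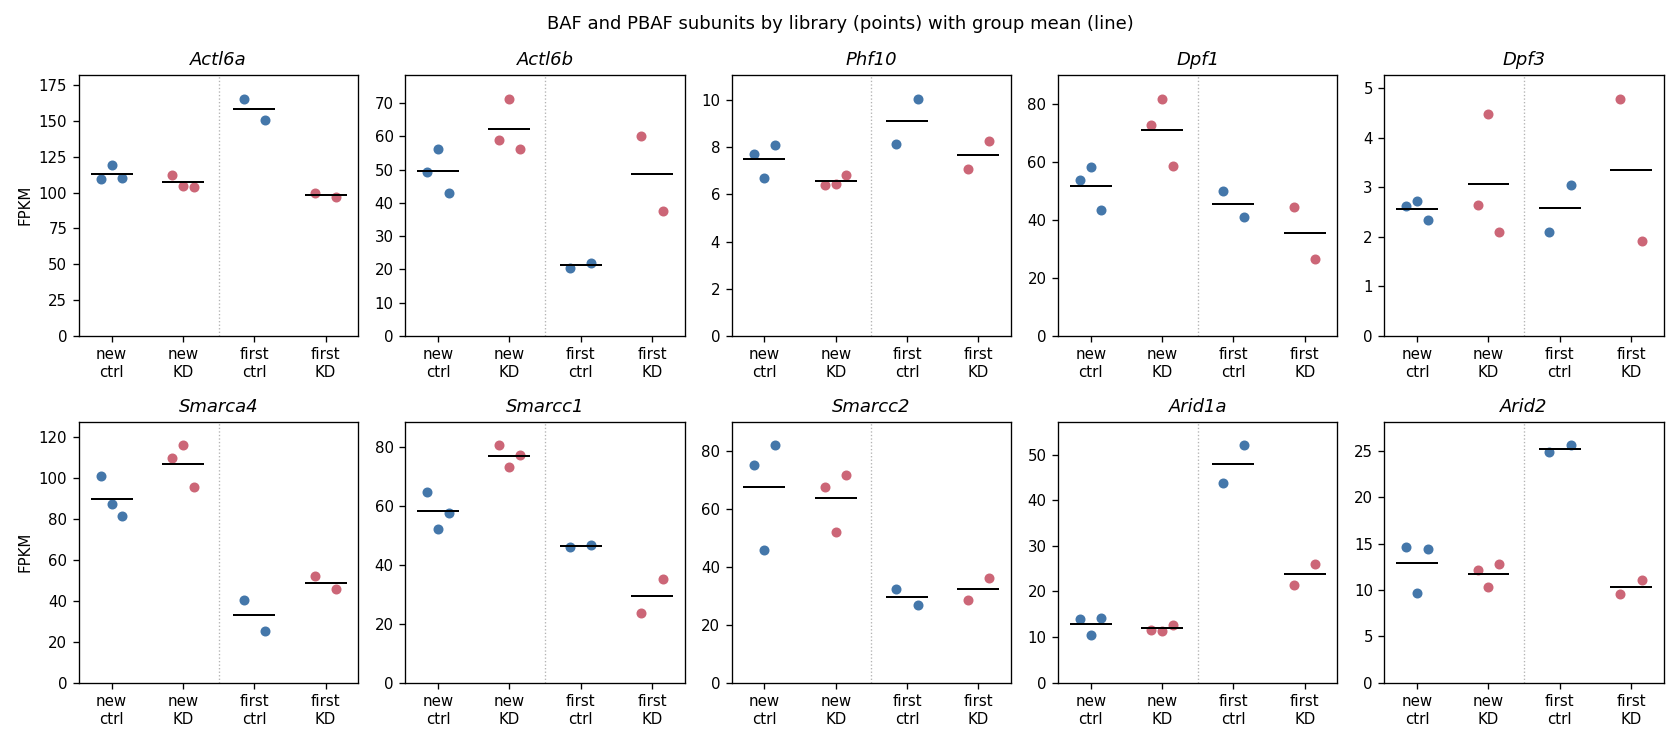
FPKM of the 10 subunit genes in each library (points) with group means (lines), for control (blue, ctrl) and Chd8 knockdown (red, KD) of the new and first sets, each panel with its own linear axis from 0. Actl6b was higher in both first-set knockdown libraries than in both controls, and Arid1a and Arid2 lay lower there while overlapping in the new set.

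The exchanged pair of actin-related subunits comes first. Actl6b, the neuronal form, was at 49.2, 56.1 and 43.1 FPKM in new-set controls 10, 11 and 12 and at 58.9, 71.4 and 56.1 FPKM after knockdown, in the same order. Each knockdown library was above the control of the same number, while knockdown 12 and control 11 met at the edge of their groups. The log2 fold change on the scale of FPKM + 1 was 0.32 (SE 0.126), which did not pass adjustment over all genes (adjusted p = 0.13) but did with the replicate number as a block (0.0214).

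In the first set Actl6b was at 20.5 and 21.9 FPKM in controls and at 60.2 and 37.5 FPKM in knockdown replicates 1 and 2. The groups did not overlap, and the rise was 1.13 on the log2 scale (SE 0.268, adjusted p = 0.0251). Its adjusted p was 0.117 with control 1 left out, 0.0979 with control 2 left out and 0.135 with knockdown 1 left out, with log2 fold changes of 1.08, 1.18 and 0.80. Such fits leave an arm of 1 library, which is assumed to vary like the other group.

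Actl6a, the progenitor form, was at 110 to 119 FPKM in the new-set controls and 104 to 113 FPKM in the knockdown libraries. These ranges overlapped, with a log2 fold change of −0.08 (SE 0.0782, 95% interval −0.26 to 0.10, adjusted p = 0.531). First-set levels went from 166 and 151 FPKM in controls to 99.6 and 97.2 FPKM in knockdown libraries. That fall of −0.68 (SE 0.191) had an adjusted p of 0.0422, and leaving out control 1, control 2, knockdown 1 or knockdown 2 gave 0.223, 0.148, 0.135 and 0.101, with fold changes of −0.61 to −0.75.

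The share of Actl6b in the sum of both genes is a value within each library that no rescaling of libraries changes. A correction by gene can change it, and the GC content was 49.1% for Actl6a and 57% for Actl6b. New-set shares were 31%, 32% and 28.1% in controls 10, 11 and 12 and 34.4%, 40.6% and 35% in the knockdown libraries. First-set shares were 11% and 12.7% in controls and 37.7% and 27.8% in knockdown libraries. Every knockdown library lay above every control of its set, with means of 36.6% ± 3.43 against 30.4% ± 2.06 (SD, n = 3 and 3) and 32.8% ± 6.95 against 11.8% ± 1.2 (SD, n = 2 and 2). How often shares of other gene pairs separate in this way was not computed. By level, groups did not overlap for 35.7% (new) and 67.8% (first) of all single genes tested.

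**Figure D2:**
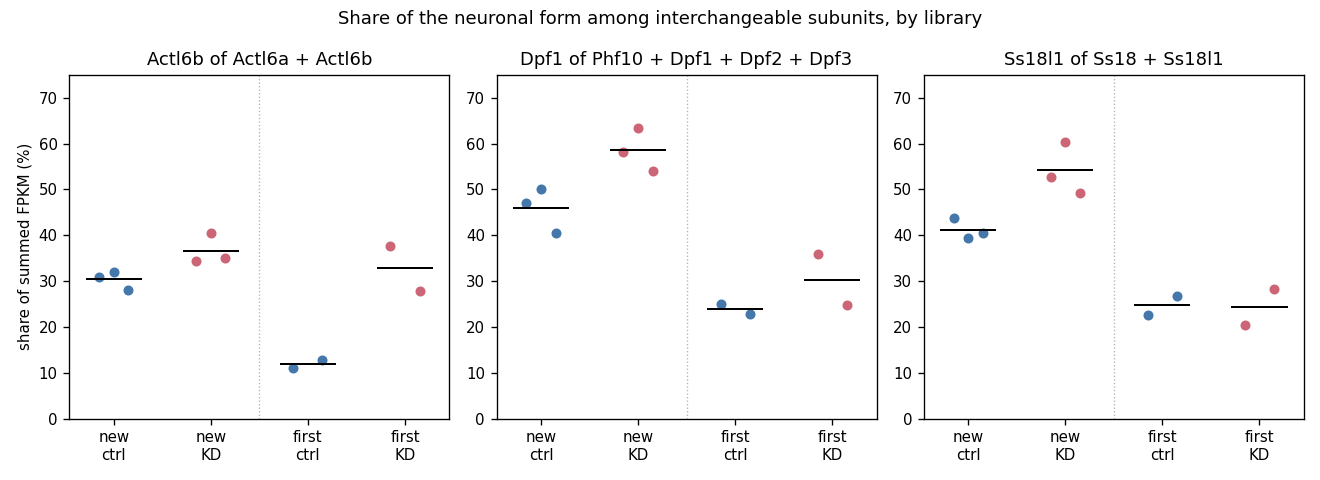
Percent of the summed FPKM that the neuronal form held among interchangeable subunits, in each library (points) with group means (lines), for control (blue) and knockdown (red) of both sets. The Actl6b share was higher in all knockdown libraries of both sets, and the Dpf1 and Ss18l1 shares were higher in all knockdown libraries of the new set only, with overlap in the first.

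With both sets in 1 fit, Actl6b rose by 0.73 on the log2 scale (SE 0.136, 95% interval 0.43 to 1.02, adjusted p = 0.00352) and Actl6a fell by 0.38 (SE 0.0783, adjusted p = 0.00554). Both calls held in all 20 alternatives run, at adjusted p of 0.000605 to 0.0135 for Actl6b and 0.0024 to 0.0179 for Actl6a. Each alternative kept libraries of both sets, so none shows whether a joined call rests on 1 set. In the new set alone, without the block, neither gene passed by limma. Actl6b was at 0.32 (adjusted p = 0.13) and Actl6a at −0.08 (adjusted p = 0.531). The fold changes of both genes differed between sets. The new-set fold change minus that of the first set was −0.81 for Actl6b (adjusted p = 0.0417) and 0.60 for Actl6a (adjusted p = 0.0144). The Actl6b difference did not pass without new-set control 10 or 11, new-set knockdown 10 or 12, first-set control 1 or 2 or first-set knockdown 1, at adjusted p of 0.0692 to 0.147 and down to −0.47, nor without trend (0.0512) or with the GC and length correction (−0.63, adjusted p = 0.0682, or 0.0692 with the block). The Actl6a difference did not pass after rescaling by the median of ratios (0.41, adjusted p = 0.0716) or to equal totals (0.28, adjusted p = 0.164), and was 0.39 (adjusted p = 0.043) with the GC and length correction.

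Phf10, Dpf1 and Dpf3 are PHD-finger subunits, of which Phf10 belongs to dividing progenitors and to PBAF. Dpf1 in the new set was at 53.9, 58.2 and 43.6 FPKM in controls 10, 11 and 12 and at 72.7, 82 and 58.5 FPKM in knockdown libraries. All knockdown libraries were above all controls, and the log2 fold change was 0.44 (SE 0.147, adjusted p = 0.0918, or 0.0119 with the replicate block). First-set levels were 50.1 and 40.9 FPKM in controls and 44.5 and 26.7 FPKM in knockdown libraries, which overlapped (−0.38, SE 0.283, adjusted p = 0.348). The GC and length correction gave −0.72 there (adjusted p = 0.0616, or 0.0206 with the block). The difference between sets was 0.83 (adjusted p = 0.0595), which passed with the replicate block (0.0114), without new-set knockdown 12 (0.0462) and without first-set knockdown 1 (0.013).

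Phf10 stayed within 6.41 to 8.12 FPKM over the new set and 7.08 to 10.1 FPKM over the first set, and its groups overlapped in both. Its log2 fold change was −0.17 (SE 0.108, adjusted p = 0.324) for new-set and −0.22 (SE 0.251, adjusted p = 0.549) for first-set libraries. Dpf3 was low throughout, at 2.10 to 4.47 FPKM in the new set and 1.91 to 4.79 FPKM in the first, with the highest library of each set a knockdown library (replicate 11 and replicate 1). Its log2 fold change was 0.15 (SE 0.203, adjusted p = 0.637) and 0.21 (SE 0.368, adjusted p = 0.693), and its first-set knockdown levels of 4.79 and 1.91 FPKM stood beside the olfactory receptor means of 1.39 and 0.993 FPKM there.

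Dpf2, the remaining PHD-finger subunit, completes this position. In the new set it was at 50.9 ± 2.38 FPKM in controls and 40.2 ± 3.55 FPKM in knockdown libraries (SD, n = 3 and 3), which did not overlap (log2 fold change −0.34, SE 0.0899, adjusted p = 0.0548). The Dpf1 share of the summed FPKM of Phf10, Dpf1, Dpf2 and Dpf3 was 45.8% ± 4.83 in new-set controls and 58.5% ± 4.69 in knockdown libraries, and that of Dpf2 was 45.2% ± 4.06 and 33.5% ± 4.89. Neither share overlapped between groups. The first-set Dpf1 share was 25% and 22.7% in controls and 35.9% and 24.7% in knockdown libraries, so knockdown replicate 2 lay within the control range.

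Smarca4, the ATPase, was at 101, 87.2 and 81.4 FPKM in new-set controls 10, 11 and 12 then 110, 116 and 95.4 FPKM after knockdown. The ranges overlapped, and the log2 fold change was 0.25 (SE 0.109, adjusted p = 0.166). First-set Smarca4 was at 40.1 and 25.4 FPKM in controls and 51.8 and 45.7 FPKM in knockdown libraries, with no overlap (0.59, SE 0.264, adjusted p = 0.141). With the GC and length correction it passed in the first set (0.79, adjusted p = 0.0493) and, with the block added, in the new set (0.29, adjusted p = 0.00839). The joined fit passed without it (0.42, SE 0.128, adjusted p = 0.0287). The joined call was lost without new-set control 12 (adjusted p = 0.0613), new-set knockdown 10 (0.0602) or 11 (0.0655), first-set control 2 (0.0939) or first-set knockdown 1 (0.0884). Of the summed FPKM of both BAF ATPases, Smarca4 held 72.3% ± 2.26 in controls and 70.5% ± 1.38 in knockdown libraries of the new set. Its first-set share was 26.3% ± 4.52 and 47.7% ± 1.9, where Smarca2 was lower in the knockdown libraries (90.3 ± 8.12 to 53.4 ± 0.662 FPKM).

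The scaffold subunit Smarcc1, which is enriched in progenitor complexes, had fold changes of opposite sign in the sets. It went from 64.7, 52.3 and 57.6 FPKM in new-set controls to 80.7, 73.4 and 77.5 FPKM in knockdown libraries (0.40, SE 0.0956, adjusted p = 0.0407). First-set Smarcc1 was at 46.1 and 46.9 FPKM in controls and at 23.7 and 35.1 FPKM in knockdown libraries (−0.67, SE 0.245, adjusted p = 0.0861), or −0.29 (adjusted p = 0.329) with the GC and length correction. The groups did not overlap in either set, and the difference between the fold changes was 1.08 (SE 0.226, adjusted p = 0.00535), or 0.63 (adjusted p = 0.0152) with that correction and 0.76 (adjusted p = 0.081) at equal totals. The new-set call was lost without control 10 (adjusted p = 0.0506), control 12 (0.108) or knockdown 10 (0.123), 11 (0.108) or 12 (0.088), at fold changes of 0.37 to 0.48, with an adjusted p of 0.0154 under the replicate block and of 0.18 with libraries at equal totals (0.27). Joined, Smarcc1 did not pass (−0.13, adjusted p = 0.39), though it did without first-set knockdown 2 (−0.27, adjusted p = 0.0421).

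Smarcc2, its partner and alternative, was at 75, 45.9 and 82 FPKM in new-set controls and 67.6, 52 and 71.6 FPKM in knockdown libraries, with replicate 11 lowest in both groups. First-set Smarcc2 was at 32.2 and 26.8 FPKM in controls and 28.6 and 36.1 FPKM in knockdown libraries. The groups overlapped in both sets, with log2 fold changes of −0.05 (SE 0.215, adjusted p = 0.889) and 0.13 (SE 0.229, adjusted p = 0.707). The Smarcc2 share of both scaffold genes was 53% ± 6.02 in controls and 45% ± 3.31 in knockdown libraries of the new set, with overlap. The first-set share was 38.7% ± 3.39 and 52.8% ± 2.84, without overlap and in the other direction.

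Arid1a and Arid2 are the DNA-binding subunits that mark BAF and PBAF. Arid1a was at 43.8 and 52.1 FPKM in first-set controls and at 21.4 and 26.1 FPKM in knockdown libraries (−0.98, SE 0.221, adjusted p = 0.0212). Arid2 was at 24.9 and 25.6 FPKM in controls and at 9.56 and 11 FPKM in knockdown libraries (−1.22, SE 0.222, adjusted p = 0.00979). Knockdown values lay at 49.6% and 40.8% of control for these genes, with no overlap. Without first-set control 1, control 2, knockdown 1 or knockdown 2 the adjusted p was 0.0806, 0.124, 0.129 and 0.0694 for Arid1a and 0.0658, 0.0721, 0.0845 and 0.0548 for Arid2, at fold changes of −0.85 to −1.12 and −1.13 to −1.31.

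In the new set both genes overlapped between groups. Arid1a was at 13.9, 10.3 and 14.2 FPKM in controls and 11.6, 11.4 and 12.7 FPKM in knockdown libraries (−0.09, SE 0.132, adjusted p = 0.673). Arid2 was at 14.7, 9.66 and 14.4 FPKM in controls and 12.1, 10.3 and 12.9 FPKM in knockdown libraries (−0.11, SE 0.164, adjusted p = 0.689). The joined fit called both lower, Arid1a by −0.54 (SE 0.116, adjusted p = 0.00655) and Arid2 by −0.66 (SE 0.129, adjusted p = 0.0041), in all 20 alternatives. Those alternatives all kept libraries of both sets. The fold changes differed between sets, by 0.89 for Arid1a (adjusted p = 0.0141) and 1.11 for Arid2 (adjusted p = 0.00816). At equal totals these were 0.58 (adjusted p = 0.189) and 0.81 (adjusted p = 0.0987), and the GC and length correction gave 0.63 for Arid2 (adjusted p = 0.0256).

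**Figure D3:**
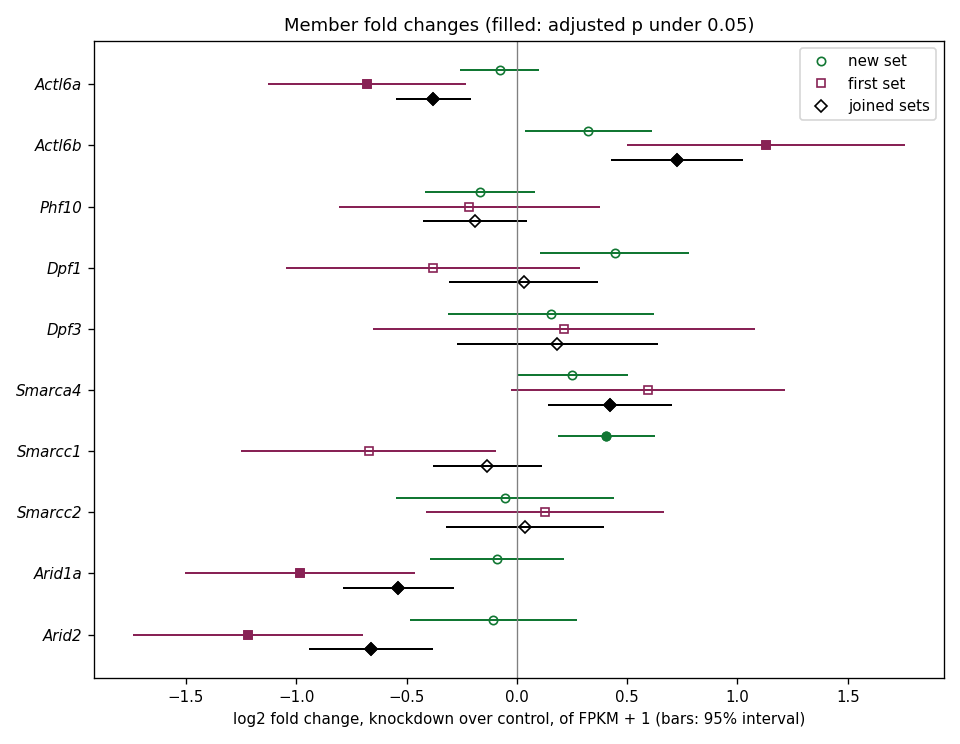
Log2 fold change of FPKM + 1, knockdown over control, for the 10 subunit genes with 95% intervals, in the new set, the first set and the joined sets, with filled markers for an adjusted p under 0.05. Actl6b, Dpf3 and Smarca4 lay above 0 and Actl6a, Phf10, Arid1a and Arid2 below 0 in both sets. Smarcc1, Dpf1 and Smarcc2 lay on opposite sides of 0 in the sets. The new-set interval of Actl6a spanned 0.

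Taken as a list, all 10 genes passed the filter of a mean of 1 FPKM in both tables. New-set calls were 1 rise (Smarcc1), 0 falls and 9 genes that did not pass, where 8.99% of all 11291 genes tested were called (3.84% higher and 5.15% lower), and with the replicate block 3 rose (Actl6b, Dpf1 and Smarcc1), where 21.7% were called. First-set calls were 1 rise (Actl6b), 3 falls (Actl6a, Arid1a and Arid2) and 6 genes that did not pass, against 23.8% of 12461 genes (13.2% higher and 10.7% lower). In the joined sets 2 rose (Actl6b and Smarca4), 3 fell and 5 did not pass, against 29.9% of 10827 genes (9.37% higher and 20.5% lower). Groups did not overlap for 2 of the 10 genes in the new set, both higher, where 35.7% of all tested genes had such groups (18.6% higher and 17.1% lower). They did not overlap for 6 of the 10 in the first set, 2 higher and 4 lower, where 67.8% had such groups (27.4% higher and 40.4% lower). The median log2 fold change of the 10 genes was 0.05 (new) and −0.30 (first), beside 0.02 and −0.15 over all genes tested. The new-set count without the block and the first-set share of non-overlapping groups were near the background. The fold changes of 5 genes differed between sets, higher in the new set for 4 (Actl6a, Smarcc1, Arid1a and Arid2) and lower for Actl6b, where 32.5% of all genes differed (22.5% higher and 9.98% lower).

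The first-set values need their scale beside them. Rescaling libraries by the median of ratios moved the median of all tested genes from −0.15 to 0.01, with the share of calls that were upward going from 55.2% to 74.3%. Relative to that scale Actl6b was at 1.30 (adjusted p = 0.0174), Arid2 at −1.05 (0.0158), Arid1a at −0.81 (0.0395) and Actl6a at −0.50 (0.112, no longer called). The correction for GC content and transcript length gave −0.64 for Actl6a (adjusted p = 0.0242), 0.85 for Actl6b (0.0279), −0.81 for Arid1a (0.0171) and −0.82 for Arid2 (0.0206). The Arid1a and Arid2 transcripts are the longest of the 10, at 8187 and 8507 bases, against 1592 bases for Actl6b. Of the others, by falling length, first-set fold changes were 0.59 for Smarca4 (6376 bases), −0.67 for Smarcc1 (5717) and 0.13 for Smarcc2 (4032). They were 0.21 for Dpf3 (3135), −0.38 for Dpf1 (2040), −0.68 for Actl6a (2010) and −0.22 for Phf10 (1663). The part of transcript length in these values was not tested.

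The 19 other BAF and PBAF subunits give the complex around these genes. In the new set 0 of them passed by limma, where 8.99% of all genes tested did. An unadjusted p under 0.05 was reached by 7 of the 19 and by 30% of all genes tested. With the replicate block 6 passed, where 21.7% of all genes did: Smarca2 (adjusted p = 0.017), the core subunit Smarcb1 (0.29, adjusted p = 0.0329), Smarcd3 (0.30, adjusted p = 0.0327) and Ss18l1 (0.0448) rose, and Dpf2 (0.0252) and Bcl7b (−0.24, adjusted p = 0.0466) fell. Without the block, nearest to the threshold were Dpf2, above, and the ATPase Smarca2 (34.2 ± 2.83 to 44.7 ± 4.69 FPKM, 0.38, adjusted p = 0.0569). Ss18l1, the neuronal form, was at 31.2 ± 4 FPKM in controls and 46.5 ± 11.7 FPKM in knockdown libraries (0.54, adjusted p = 0.0869). Its progenitor counterpart Ss18 was at 44.4 ± 2.05 and 38.5 ± 1.87 FPKM (−0.20, adjusted p = 0.139). The Ss18l1 share of both genes was 41.2% ± 2.31 in controls and 54.1% ± 5.71 in knockdown libraries, without overlap.

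Over all genes tested in the first set 10.7% were called lower and 13.2% higher, with a median log2 fold change of −0.15. Of the 19 subunits 9 fell there, 0 rose and 10 did not pass, with a median of −0.61. Among them were Bcl11b, a zinc-finger subunit also known as a marker of deep-layer neurons (46.9 ± 7.13 to 18.3 ± 1.21 FPKM, −1.30, adjusted p = 0.0072), Ss18 (−1.18, adjusted p = 0.0161), Ss18l1 (−1.17, adjusted p = 0.0237) and Dpf2 (−0.93, adjusted p = 0.0163). The others were the core subunits Smarca2, Smarce1 and Bcl7a and the PBAF subunits Pbrm1 and Brd7, at −0.74 to −0.87. Each of the 9 calls was lost without single libraries, at adjusted p of 0.065 to 0.0697 for Bcl11b (without control 2, knockdown 1 or knockdown 2), 0.1 to 0.125 for Ss18 (without control 1, knockdown 1 or knockdown 2) and 0.0586 to 0.214 for the other 7 without any 1 of the 4 libraries. Scaling and correction also ended calls. By the median of ratios Smarca2 (−0.57), Smarce1 (−0.58), Bcl7a (−0.70), Pbrm1 (−0.60) and Brd7 (−0.62) did not pass, at adjusted p of 0.0574 to 0.0982. With the GC and length correction Smarca2 (−0.40), Bcl7a (−0.58), Pbrm1 (−0.45) and Brd7 (−0.52) did not, at 0.0557 to 0.16. Ss18 and Ss18l1 went down by about the same factor, and the Ss18l1 share was 24.7% ± 3 in controls and 24.3% ± 5.46 in knockdown libraries (SD, n = 2 and 2).

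In the joined fit 7 of the 19 fell and 1 rose, where 20.5% of all genes tested were called lower and 9.37% higher. Dpf2 (−0.63, SE 0.0848, adjusted p = 0.000829) and Ss18 (−0.69, SE 0.109, adjusted p = 0.0017), both progenitor forms, were called lower in all 20 alternatives. Bcl11b, Brd7, Bcl7a, Smarce1 and Pbrm1 fell by 0.30 to 0.54 on the log2 scale. Smarcd3, a core accessory subunit, rose by 0.37 (SE 0.117, adjusted p = 0.034), a call lost without new-set control 10 or 12, new-set knockdown 10 or 11, first-set control 1 or first-set knockdown 1 (adjusted p of 0.0512 to 0.105). First-set knockdown 1 also decided the calls of Brd7 (0.0538 without it), Bcl7a (0.0628), Pbrm1 (0.0605) and Smarce1 (0.0544). Calls were lost too for Bcl7a without new-set control 12 (0.0504), new-set knockdown 10 (0.0554) or first-set control 2 (0.0634), for Pbrm1 without new-set control 10 (0.0538), control 12 (0.0501) or knockdown 10 (0.0635), and for Smarce1 without new-set control 12 (0.052), new-set knockdown 11 (0.0565) or first-set control 1 (0.0568). The GC and length correction ended the calls of Pbrm1 (−0.05, adjusted p = 0.622), Bcl7a (−0.16, 0.182), Smarce1 (−0.22, 0.102), Brd7 (−0.20, 0.148), Bcl11b (−0.34, 0.0672) and Smarcd3 (0.24, 0.121), and the median of ratios those of Pbrm1 (0.0685), Bcl7a (0.0618) and Smarce1 (0.0715).

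**Figure D4:**
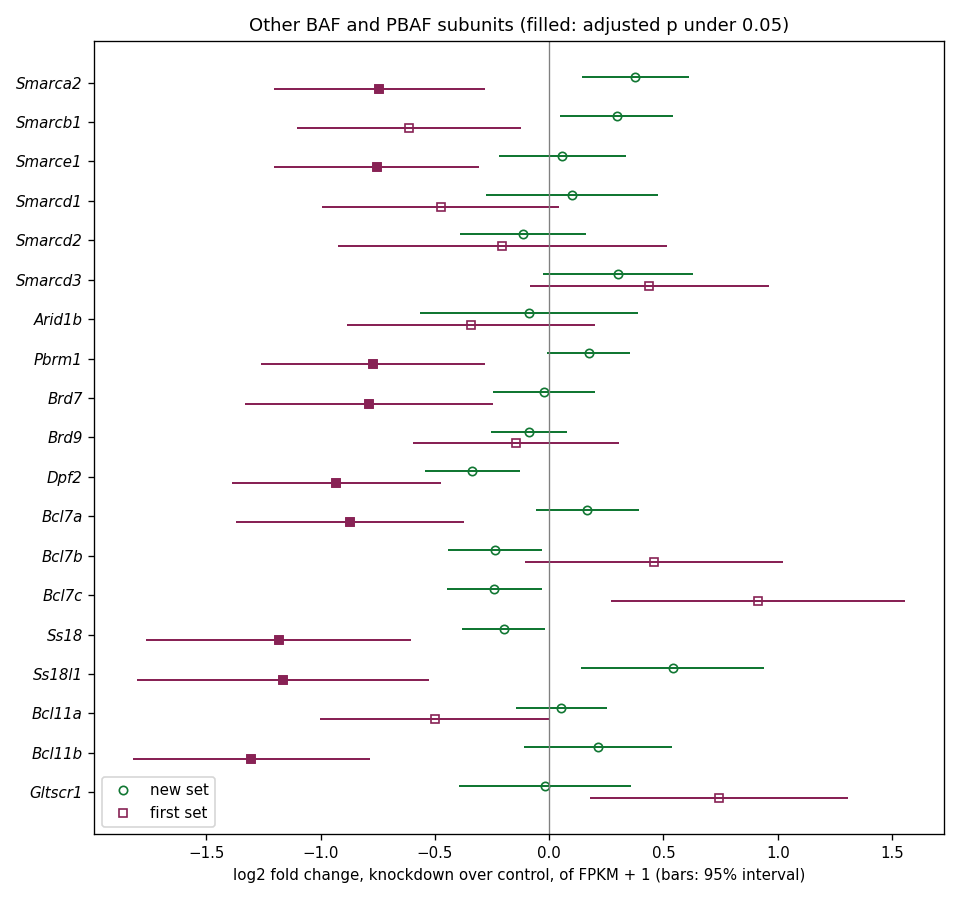
Log2 fold change of FPKM + 1, knockdown over control, for the 19 other BAF and PBAF subunits with 95% intervals in the new and first sets, with filled markers for an adjusted p under 0.05. In the first set 9 genes are filled, all below 0, and in the new set none is filled. Dpf2, Ss18, Smarcd2, Arid1b, Brd7 and Brd9 lay below 0 in both sets and Smarcd3 above 0 in both. The others, Ss18l1 among them, lay on opposite sides.

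Markers of cell state moved beside the subunits. Over all genes tested 5.15% were called lower and 3.84% higher in the new set, and 10.7% lower and 13.2% higher in the first. In the new set 9 of 16 radial glia genes fell and 0 rose (median −0.50), among them Prom1 (−0.40, adjusted p = 0.0292) and Pax6 (−0.42, adjusted p = 0.0484), while 8 of 15 tested genes of postmitotic neurons rose and 0 fell (median 0.54), among them Nefl (1.34, adjusted p = 0.0102). The summed level of the neuronal genes was 2440 to 2950 FPKM in controls and 3520 to 4360 FPKM in knockdown libraries, and that of 8 intermediate progenitor genes, of which 4 fell, was 899 to 1060 and 612 to 676 FPKM. In first-set libraries 2 of those 8 rose and 3 fell, with sums of 611 to 613 FPKM in controls and 577 to 1020 FPKM in knockdown libraries. Among first-set libraries 3 of 16 radial glia genes fell (median −0.34), 5 of 15 neuronal genes fell and 0 rose (median −0.43), and the summed neuronal level was 4920 to 5390 FPKM in controls and 3400 to 3710 FPKM in knockdown libraries. The part of these shifts in the subunit values was not tested.

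Erythroid genes were the most abundant of those of other cells in the new set. The 8 microglia genes summed to 3.86 to 11.2 FPKM in new-set controls and 1.69 to 7.35 FPKM in knockdown libraries. In the first set they summed to 1.87 to 6.46 FPKM in controls and 15.2 to 27.1 FPKM in knockdown libraries. There 5 of 7 tested were called higher, beside 13.2% of all genes tested. These 5 had control means of 0.0331 to 0.832 FPKM and passed the filter of 1 FPKM only through their knockdown libraries. Their knockdown means of 1.99 to 3.84 FPKM stood beside olfactory receptor means of 1.39 and 0.993 FPKM there. The 7 endothelial and pericyte genes summed to at most 3.32 FPKM (new) and 18.2 FPKM (first). The 6 erythroid genes summed to 137 to 264 FPKM in new-set controls and 23.2 to 114 FPKM in knockdown libraries, and 2 of 4 tested fell. Of 5 tested interneuron genes 4 fell in the new set, where the 8 genes of that list summed to 20.2 to 30.9 and 12.7 to 16.6 FPKM. Among those 4, Dlx2, Dlx5 and Lhx6 passed the filter only through their controls, with knockdown means of 0.542 to 0.971 FPKM. Over all genes tested 5.15% were called lower in the new set. First-set counts were 0 of 2 tested erythroid, 0 of 3 endothelial and 0 of 8 interneuron genes called by limma, with 0, 0 and 1 at an unadjusted p under 0.05. None of these genes was at 0 in all libraries of a set, and their part in the subunit values was not tested.

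Genes whose pattern was most like each Actl6 gene are given as a description, by Pearson's r of log2(FPKM + 1) over 10 libraries after centring each set on its own mean, among 10789 genes. The libraries of a set share batch and table, and the larger first-set contrast weighs most in r. Closest to Actl6a were Katna1 (r = 0.989), Hadh (0.989) and Arpp19 (0.987). Closest to Actl6b were Rpp38 (0.989), Wbp1 (0.984) and 2900079G21Rik (0.982). Wbp1 was at 140 ± 12 FPKM in new-set controls and 169 ± 12 FPKM in knockdown libraries (SD, n = 3 and 3), and at 54.9 ± 0.901 and 106 ± 16.8 FPKM in the first set (n = 2 and 2).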

How the data were processed

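Per the submitters' processing notes, TopHat2, Bowtie, Cufflinks 2.0.0, Cuffdiff and mouse build mm9 were used. The annotation, read filters and strandedness were not found in the labels. Per the labels, RNA came from a Qiagen RNeasy Plus preparation and went into Clontech low-input libraries. The authors deposited FPKM, 1 column per library, in 2 separately made tables.

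Values were transformed to log2(FPKM + 1). Genes whose mean in a table reached 1 FPKM were tested two-sided per set and jointly, using limma 3.58.1 under R 4.3.3 with a trended eBayes step. The joined contrasts were the mean of both fold changes and the new-set minus first-set difference. P-values were adjusted by Benjamini-Hochberg over all tested genes, and an adjusted p under 0.05 is called. Fold changes of low genes are understated. The fit was checked on simulated data.

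The 10 genes and all lists were chosen with earlier results of these data known. Named genes are the 10, Chd8, the other subunits and list members with the smallest joined p. Map2 was not in the tables.

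Same-numbered libraries deviated together in the new set (r = 0.122, 0.242 and 0.193 for replicates 10, 11 and 12). In the first set r was −0.0285, necessarily the same for both pairs because each group held 2 libraries. Blocked values stand beside new-set results they change. Alternatives were another pseudocount, other filters, rescalings, background subtraction, no trend, the block, a GC and length correction, and leaving out each library. Paralogs shared at most 1 stretch of 31 bases (Dpf1 and Dpf3) in GENCODE M21. Sequences come from RefSeq and GENCODE M21.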

Additional observations from a re-analysis of the deposited data

Results flagged for a closer look

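The effect of knockdown differed between the new and the first set, by a test of the difference itself in limma (adjusted p under 0.05), for 5 of the 10 subunit genes. The new-set minus first-set difference in log2 fold change was 0.60 for Actl6a, −0.81 for Actl6b, 1.08 for Smarcc1, 0.89 for Arid1a and 1.11 for Arid2. Each lost its call in some alternatives: Actl6b in 10 of 20, Actl6a in 2, and Smarcc1, Arid1a and Arid2 in 1 each (equal totals). Over all genes tested 32.5% differed, and the median difference was 0.23.

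Of the 19 other subunits 13 differed. The difference was positive for the ATPase Smarca2 (1.12), the core subunits Smarcb1 (0.91) and Smarce1 (0.81), the PBAF subunits Pbrm1 (0.94) and Brd7 (0.77), and Dpf2 (0.59). It was also positive for Bcl7a (1.04), Ss18 (0.99), Ss18l1 (1.71), Bcl11a (0.55) and Bcl11b (1.52), and negative for Bcl7b (−0.69) and Bcl7c (−1.15). First-set Bcl7c had a control mean of 0.947 FPKM and passed the filter of 1 FPKM only through its knockdown libraries. These were at 2.22 to 3.07 FPKM, beside olfactory receptor means of 1.39 and 0.993 FPKM. Its new-set control mean was 40 FPKM. The Bcl11a difference held in 6 of 20 alternatives (down to 0.06, adjusted p up to 0.803 by limma), and calls were lost in 7 for Brd7 (down to 0.37), 6 for Bcl7b and 4 for Dpf2 (down to 0.27). For Bcl7c 3 of 19 ended the call (down in size to −0.43 after GC and length correction). Calls were also lost for Bcl7a, Smarce1 and Pbrm1 in 1 alternative each. Between sets, shRNA, batch and table cannot be told apart as sources of these differences.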

How the results depend on the processing

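The joined calls of Actl6a, Actl6b, Arid1a, Arid2, Dpf2 and Ss18 held in all 20 alternatives. Each alternative kept libraries of both sets, so none shows whether a joined call rests on 1 set. In the new set alone, without the block, none of these genes passed by limma. Actl6a, Arid1a and Arid2 were at −0.08, −0.09 and −0.11. Actl6b was at 0.32 (adjusted p = 0.13), Dpf2 at −0.34 (0.0548) and Ss18 at −0.20 (0.139). Of the 10 genes, those called in the new set (1) numbered 0 without a filter, with equal totals and without trend, 3 with the replicate block, 2 with the GC and length correction, 4 with both, and 0 to 1 without 1 library. In the first set (4) they numbered 1 without a filter, 2 with equal totals, 5 with the GC and length correction, 6 with block and correction, and 0 to 1 without 1 library. In the first set, where same-numbered libraries had an r of −0.0285, the block gave Actl6a an adjusted p of 0.052 by limma and left 3 genes called.

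Over all genes, the new-set count of 1015 became 470 without a filter, 2452 with the block, 1967 with the GC and length correction, 3397 with both and 88 to 1883 without 1 library. The first-set count of 2971 became 1602 at a minimum of 5 FPKM and 713 to 1247 without 1 library. Without a filter the joined count went from 3238 to 5917 and the count of differences from 3520 to 6345. The upward share went from 42.8% to 18.9% in the new set with equal totals. In the first set (55.2%) it was 74.3% by the median of ratios, 83% with equal totals and 30.6% after background subtraction, and in the joined sets (31.3%) 46.6%, 42% and 17.6%. Of the differences (69.3% higher in the new set) it was 51.6%, 33.1% and 83.4%.

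Directions turned only for values that had not passed. Background subtraction gave Dpf3 −0.277 in the first set, −0.061 joined and 0.432 for the difference, and Chd8 0.042 for the difference. The Phf10 difference became −0.121 by the median of ratios, −0.243 with equal totals and −0.146 with the GC and length correction, with or without the block. That correction gave −0.089 for Dpf1 and 0.091 for Smarcc1 in the joined sets, with or without the block. Without 1 library, Dpf3 ranged from −0.08 to 0.33 in the new set, −0.282 to 0.708 in the first and −0.064 to 0.431 joined, and Smarcc2 from −0.307 to 0.104, −0.035 to 0.289 and −0.09 to 0.118. The Phf10 difference ranged from −0.09 to 0.188 and that of Dpf3 from −0.554 to 0.436. Joined Dpf1 ranged from −0.149 to 0.21 and joined Smarcc1 from −0.271 to 0.003. The causes were not tested.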
